A study of Rattus norvegicus with 12 samples.

Results

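Hemorrhagic shock was compared with sham shock in rat lung over both states of the mesenteric lymph duct. All 12 of the 12 arrays of the series entered, chosen by their titles: 6 from shocked rats and 6 from sham-shocked rats, with duct ligation as a covariate. The animals were male Sprague-Dawley rats of 300 to 420 g, all anesthetized, cannulated and given a laparotomy as the trauma. T/SS rats (trauma, sham shock) had no blood withdrawn. T/HS rats (trauma, hemorrhagic shock) were bled to a mean arterial pressure of 30 mmHg, which was held for 90 min, and the shed blood, drawn into heparin, was then returned. In the groups with the suffix LDL (T/SS-LDL, T/HS-LDL) the mesenteric lymphatic vessels were first tied and cut, and sham or hemorrhagic shock followed as above. Harvest of the lungs came 3 h later than the end of the shock or sham period, which is 4.5 h from its beginning. By the design text, T/HS lungs were injured and the lungs of the other groups were not, so the contrast of shock with sham over both duct states pairs injured with uninjured shocked lungs. Heparin is named for the shocked rats only, so it cannot be told apart from shock here.

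Blood loss lowers oxygen delivery to tissue, and return of the blood brings oxygen back to cells that had lacked it. Neutrophils gather in the narrow capillaries of the lung after such an insult, and interleukin 1, chemokines and adhesion molecules govern their arrest and activation. Gut-derived lymph reaches the lung vessels before other capillary beds, so tying the mesenteric duct separates what the lymph carries from what the loss of blood does by other routes. Genes that differ between shock and sham with the duct open and with the duct tied are the subject here.

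Each group had 3 arrays, of which 1 pair was near-identical: the robust SD of their log2 differences was 0.00993 to 0.0548, against 0.164 to 0.232 for the 8 other pairs within a group. Such a pair was averaged and counted as 1 sample, which left 2 samples a group and 4 a side. The labels call every array a biological replicate, and p-values measure only the spread between these samples. Array medians lay between 651 and 680 intensity units. Between 22 and 51 probe sets an array lay within 2% of the highest value of the array, where a difference cannot be read. The surfactant genes Sftpc and Sftpa1, defining markers of the alveolar epithelium, were at or near that ceiling in every sample, as was the globin gene Hbb. Values below are log2 intensities, with the averaged pair of a group first and its single array second, and errors are standard errors from limma. The tissue was bulk lung, so fewer cells of a type and less RNA per cell cannot be told apart.

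After shock, inflammatory genes of myeloid cells stood higher in both duct states, led by Il1b and its decoy receptor Il1r2, and markers of smooth muscle and genes of the respiratory chain had negative list medians in both. The largest differences were upwards. In 18 probe sets shock exceeded sham over 2-fold in both duct states, 0.206% of those tested, and in 0 did it fall short of sham by as much. These 18 included 3 for Il1b and 1 each for Il1r2, Ceacam4, Hp, Nos2, Selp, Gch1, Ccr1, S100a8, Sod2, Cd14 and Vcan. The other 4 were Fam111a, whose sham samples overlapped with its shock samples, and 3 probe sets without a single gene symbol. Of these, rc_AI176456_at (14.94) and M11794cds#2_f_at (14.91) lay within 2% of the highest value of the array in T/HS replicate 2. Their differences against that array cannot be read. Without T/HS replicate 2 the count was 8, of which 6 were among the 18.

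No probe set passed an adjusted p of 0.05 for shock over both duct states (0 of 8740, 0%, by limma with 5 residual degrees of freedom). At an unadjusted p of 0.05, 818 did, 323 higher and 495 lower. At an adjusted p of 0.10 there were 2 (0.0229%), Il1b and a probe set for which the annotation lists several genes, rc_AI176456_at. The latter lay at the ceiling in T/HS replicate 2 (14.94), so its difference against that array cannot be read. Separate contrasts called 0 with the duct open (0%; 769 at an unadjusted p of 0.05) and 0 with the duct ligated (0%; 331). If no probe set differed, a share of about 0.05 of the 8740 would still pass that unadjusted threshold. The count with the duct ligated was below that share. Treating the near-identical arrays as separate samples in a random block gave 69 calls, 38 higher and 31 lower. As 12 separate samples with no block they gave 530, and the 8 samples less T/HS replicate 2 gave 5, all higher. The genes below are therefore described by their samples.

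A probe set is called separated when, in each duct state, both shock samples lay on the same side of both sham samples. This held upwards for 405 probe sets (4.63%) and downwards for 378 (4.32%). With each array centred on its median the split was 334 upwards and 454 downwards. Another 287 were separated in opposite directions in the 2 duct states, 94 of them higher with the duct open and lower with it ligated. Both shock effects, which share no samples, had the same sign in 57.1% of probe sets and correlated across probe sets with a Pearson r of 0.36 and a Spearman rho of 0.25. Probe sets are not independent replicates, and r was 0.21 without T/HS replicate 2. Separated probe sets higher after shock had a median effect of 0.22 and a median signal of 9.13. Those lower after shock had a median effect of -0.29 and a median signal of 11.02, against 9.38 over all probe sets. Of the 8740 probe sets, the 4 shock samples all lay above the 4 sham samples in 218 and all below in 188. Some of so many probe sets would be ordered in this way without any effect. Genes below were picked by these same samples, so a lack of overlap describes them and is no separate support.

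**Figure D1:**
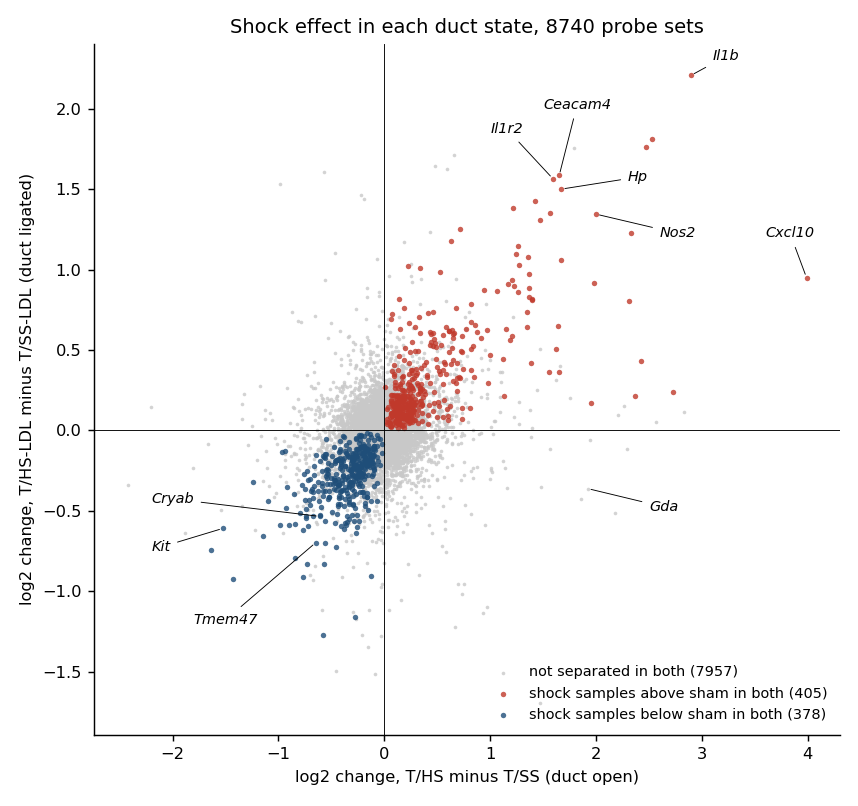
Shock effect with the duct ligated (T/HS-LDL minus T/SS-LDL, log2) against that with the duct open (T/HS minus T/SS, log2) for 8740 probe sets. Each point is 1 probe set. The 405 red points and 378 blue points are separated upwards or downwards in both duct states, Il1b lies at the upper right, Cxcl10 at the far right has 1 sample at the ceiling, and the cloud reaches farther upwards than downwards along the diagonal.

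Interleukin 1 signalling held the largest difference. Of 9 measured ligands and receptors, 3 were separated upwards and 0 downwards, against 4.48% upwards and 4.84% downwards of 4736 genes. Il1b, the secreted inflammatory cytokine, read 9.22 and 9.05 in T/SS, 11.37 and 12.70 in T/HS, 9.32 and 9.24 in T/SS-LDL and 11.32 and 11.66 in T/HS-LDL. Its log2 difference was 2.55 ± 0.28, 5.86-fold (adjusted p = 0.0857), and all 4 shock samples lay above all 4 sham samples. The other Il1b probe sets gave 2.17 and 1.78, and both were separated. T/HS replicate 2 was the highest sample, and without it the difference was 2.22.

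Il1r2, the decoy receptor that binds interleukin 1 without signalling, read 10.41 and 10.25 in T/SS, 11.40 and 12.43 in T/HS, 10.95 and 11.24 in T/SS-LDL and 12.79 and 12.53 in T/HS-LDL. The difference was 1.58 ± 0.21 (2.99-fold, adjusted p = 0.117), almost the same with the duct open (1.59) and ligated (1.56). Sham samples with the duct ligated lay above sham samples with it open, but below every shock sample. Il1rn, the soluble receptor antagonist, was separated upwards by a smaller step: 8.93 and 9.18 in T/SS, 9.29 and 9.84 in T/HS, 8.95 and 9.16 in T/SS-LDL and 9.28 and 9.18 in T/HS-LDL (0.34 ± 0.14, adjusted p = 0.521), with T/HS-LDL only just above T/SS-LDL. Without T/HS replicate 2 the Il1rn difference was 0.20. Il1a, the second ligand, had a difference of -0.23 ± 0.25, and its groups overlapped. The precursor-cleaving protease Casp1 was high in T/HS replicate 2 (13.66) and between 11.74 and 12.38 elsewhere.

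Markers of neutrophils were the list with the largest share of separated genes. Of 14 measured, 10 were separated upwards and 0 downwards, against 4.48% and 4.84% of all genes. In both duct states 13 were higher, against 29.5% of all genes. The median difference of the list was 0.60, and that of all genes 0.00. The list also holds Il1b, Il1r2 and Cxcr2. Summed over the list, the signal was 34923 to 41245 intensity units in T/SS and 56108 to 94344 in T/HS. With the duct ligated it was 49506 to 60729 in sham and 80681 to 90423 in shocked lungs. Sham lungs with a ligated duct thus lay above sham lungs with an open one, and the shock samples lay above their own shams in each state.

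S100a8, a calcium-binding protein abundant in neutrophils, read 11.87 and 11.18 in T/SS, 12.37 and 13.39 in T/HS, 12.27 and 12.60 in T/SS-LDL and 13.44 and 13.58 in T/HS-LDL (1.22 ± 0.24, 2.32-fold, adjusted p = 0.225). Both shock groups lay above their own shams, while T/HS overlapped with T/SS-LDL. Mmp8, the neutrophil collagenase, read 9.03 and 8.17 in T/SS, 9.71 and 10.21 in T/HS, 9.76 and 10.20 in T/SS-LDL and 10.30 and 11.43 in T/HS-LDL (1.12 ± 0.30). Both shock groups lay above their own shams, but T/SS-LDL replicate 2 reached the level of T/HS. Mmp9, a gelatinase stored in neutrophil granules, differed by 0.75 ± 0.27, with T/HS-LDL replicate 2 highest at 10.65, and by 0.45 without that array. Pglyrp1, a peptidoglycan-binding granule protein that was not on the list, read 8.84 and 8.63 in T/SS, 9.17 and 9.53 in T/HS, 9.05 and 8.83 in T/SS-LDL and 9.53 and 9.58 in T/HS-LDL (0.61 ± 0.10, adjusted p = 0.225). All 4 shock samples lay above all 4 shams. Fgr, a Src family kinase of myeloid cells, differed by 0.52 ± 0.08 without overlap, and Cxcr2, the neutrophil receptor for CXC chemokines, by 0.54 ± 0.14. Lcn2, the abundant granule lipocalin, was not separated (0.65 ± 0.31), with the averaged T/SS-LDL pair at 14.36.

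Ceacam4, a member of the carcinoembryonic antigen family of adhesion molecules, read 9.35 and 9.31 in T/SS, 10.21 and 11.75 in T/HS, 9.42 and 9.27 in T/SS-LDL and 11.01 and 10.85 in T/HS-LDL. The difference was 1.62 ± 0.28 (3.07-fold, adjusted p = 0.225), with no overlap. Hp, or haptoglobin, binds free hemoglobin and read 11.39 and 11.18 in T/SS, 12.23 and 13.69 in T/HS, 11.79 and 11.32 in T/SS-LDL and 12.95 and 13.17 in T/HS-LDL. It differed by 1.59 ± 0.29 (3-fold, adjusted p = 0.225), and the lowest shock sample lay above the highest sham sample. Alox5ap, the lipoxygenase partner needed for leukotriene synthesis, read 11.92 and 11.84 in T/SS, 12.70 and 12.35 in T/HS, 12.17 and 12.42 in T/SS-LDL and 12.89 and 12.85 in T/HS-LDL (0.61 ± 0.10), separated within each duct state although T/SS-LDL and T/HS overlapped.

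**Figure D2:**
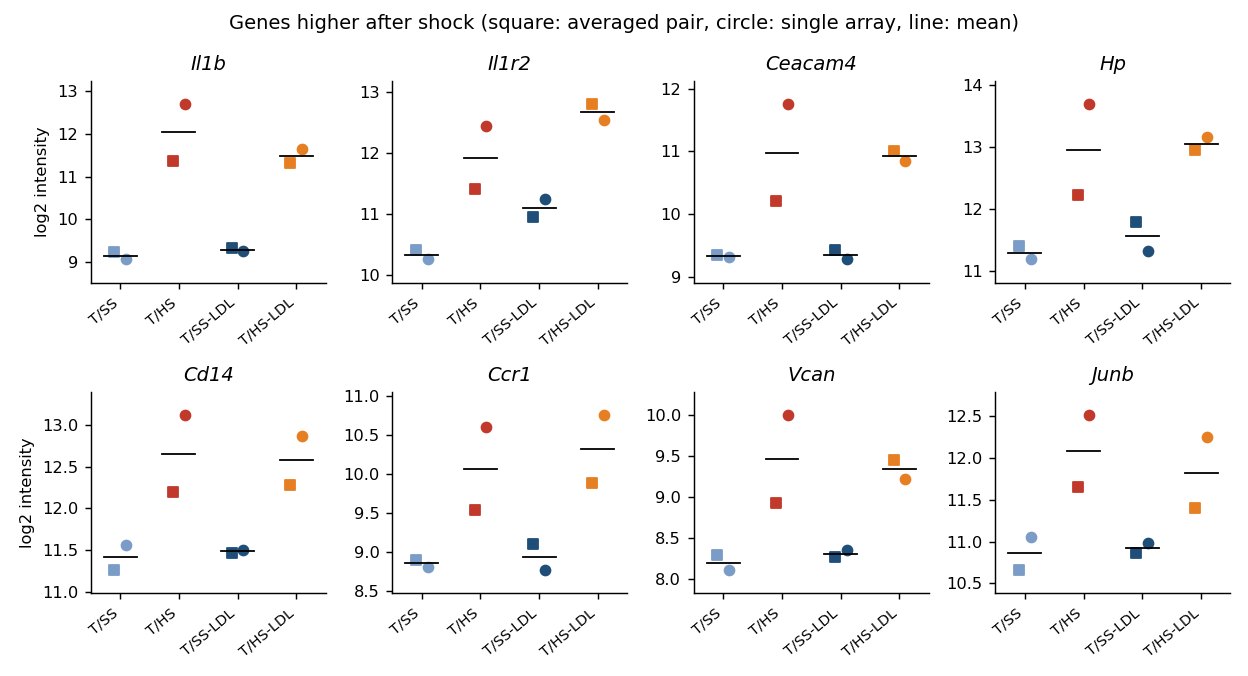
Log2 intensity of 8 genes higher after shock, by group. Squares are averaged pairs, circles single arrays and lines group means. In each panel both T/HS samples lie above both T/SS samples and both T/HS-LDL samples above both T/SS-LDL samples, and T/HS replicate 2 is the higher of the T/HS samples.

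Of 12 monocyte and macrophage markers, 4 were separated upwards and 0 downwards, against 4.48% and 4.84% of all genes. The median of the list was 0.20. In all 7 were higher in both duct states, 3 were lower in both and 2 went opposite ways. Cd14, the co-receptor for bacterial lipopolysaccharide, read 11.26 and 11.56 in T/SS, 12.20 and 13.12 in T/HS, 11.46 and 11.50 in T/SS-LDL and 12.28 and 12.87 in T/HS-LDL. It differed by 1.17 ± 0.21 (2.25-fold, adjusted p = 0.225), and the shock samples all lay above the shams. Ccr2, the monocyte receptor for Ccl2, read 7.57 and 7.53 in T/SS, 8.25 and 8.14 in T/HS, 7.79 and 7.82 in T/SS-LDL and 8.08 and 8.14 in T/HS-LDL (0.48 ± 0.09, adjusted p = 0.225), again without overlap. Fcgr2b, an inhibitory Fc receptor, differed by 1.10 ± 0.30, with T/HS replicate 2 (11.03) and T/HS-LDL replicate 2 (10.69) highest. C1qb, a chain of complement C1q made by macrophages, differed by 0.23 ± 0.07 and did not overlap. Summed signals of the list were 63936 to 67403 in T/SS, 70198 to 78316 in T/HS, 66985 to 67655 in T/SS-LDL and 67573 to 75784 in T/HS-LDL. None of 16 T and NK cell markers was separated, nor any of 11 fibroblast markers. With the shares over all genes that low, a count of 0 does not set lists of this size apart. How far the amounts of these cells account for the genes above was not tested.

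Chemokines and their receptors had 7 of 20 genes separated upwards and 0 downwards, against 4.48% and 4.84% of all genes. Their median was 0.20, or 0.12 without T/HS replicate 2. Ccr1, a receptor for several inflammatory CC chemokines, read 8.89 and 8.81 in T/SS, 9.53 and 10.60 in T/HS, 9.11 and 8.76 in T/SS-LDL and 9.88 and 10.75 in T/HS-LDL (1.30 ± 0.26, 2.46-fold, adjusted p = 0.225). The 4 shock samples were the 4 highest. Ccl4, an inflammatory CC chemokine, was separated by 0.48 ± 0.21, or 0.23 without T/HS replicate 2: 7.85 and 7.90 in T/SS, 8.22 and 9.15 in T/HS, 7.80 and 7.98 in T/SS-LDL and 8.03 and 8.04 in T/HS-LDL. Of 20 genes of TNF, interleukin 6 and NF-kB signalling, 16 were higher in both duct states, against 29.5% of all genes. Separated were 4, all upwards, and the list's median was 0.14. Tnfrsf1b, a TNF receptor of leukocytes, differed by 0.73 ± 0.20 in 1 probe set without overlap, and by -0.05 in its brighter probe set. Tnfrsf1a, the widely expressed TNF receptor, differed by 0.41 ± 0.18 and was not separated.

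Nos2, the inducible nitric oxide synthase, read 9.001 and 8.69 in T/SS, 9.18 and 12.51 in T/HS, 8.84 and 8.97 in T/SS-LDL and 9.86 and 10.64 in T/HS-LDL. The difference was 1.67 ± 0.63 (3.19-fold, adjusted p = 0.485), 0.94 without T/HS replicate 2, which lay over 1 log2 unit above any other sample. The brightest of its 4 probe sets differed by 0.11. Gch1, which starts synthesis of the nitric oxide synthase cofactor tetrahydrobiopterin, and Sod2, the mitochondrial superoxide dismutase, showed the same order. Both were chosen after their values were seen. Gch1 read 9.08 and 9.14 in T/SS, 9.68 and 11.88 in T/HS, 9.74 and 9.13 in T/SS-LDL and 10.12 and 10.87 in T/HS-LDL, a difference of 1.36 ± 0.45 in the probe set with the largest of its differences. Sod2 read 10.32 and 10.69 in T/SS, 10.70 and 12.83 in T/HS, 10.56 and 10.24 in T/SS-LDL and 11.28 and 11.81 in T/HS-LDL, a difference of 1.21 ± 0.41. Without T/HS replicate 2 the differences were 0.86 for Gch1 and 0.77 for Sod2. In all of these genes the single arrays of T/HS and T/HS-LDL were above the averaged pairs.

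Selp, or P-selectin, which tethers leukocytes to activated endothelium, showed that order most sharply: 9.18 and 9.18 in T/SS, 9.25 and 11.95 in T/HS, 9.04 and 9.04 in T/SS-LDL and 9.51 and 11.41 in T/HS-LDL. Its difference was 1.42 ± 0.59 (adjusted p = 0.527), or 0.88 without T/HS replicate 2. The single arrays of both shock groups were high, and the averaged pairs lay just above the shams. Icam1, the endothelial ligand of leukocyte integrins, differed by -0.23 ± 0.15 with overlapping groups. Selp was the only separated gene of 12 for leukocyte adhesion, against 4.48% upwards and 4.84% downwards of all genes.

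Interferon-responsive genes had the highest list median, 0.94, with 6 of 17 genes separated upwards and 0 downwards, against 4.48% and 4.84% of all genes. The median rested on 1 array. The mean log2 level of the list was 2.71 above T/SS in T/HS replicate 2, 0.31 in the other T/HS sample and 0.24 and 0.28 in T/HS-LDL. Without T/HS replicate 2 the median was 0.27. Cxcl10, a chemokine induced by interferon, read 7.48 and 7.58 in T/SS, 8.12 and 14.92 in T/HS, 7.35 and 7.55 in T/SS-LDL and 8.54 and 8.26 in T/HS-LDL. T/HS replicate 2 lay within 2% of the highest value of its array, so the difference against it cannot be read. Without that array shock was higher by 0.81. Irf1, a transcription factor of the interferon response, read 11.47 and 11.89 in T/SS, 12.72 and 14.60 in T/HS, 11.93 and 11.69 in T/SS-LDL and 12.65 and 12.80 in T/HS-LDL (1.45 ± 0.40, adjusted p = 0.355). Stat2, which carries the type I interferon signal, differed by 0.90 ± 0.39, or 0.43 without T/HS replicate 2. Tap2, a peptide transporter of antigen presentation, differed by 0.96 ± 0.39, or 0.48 without it. Both were separated.

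**Figure D3:**
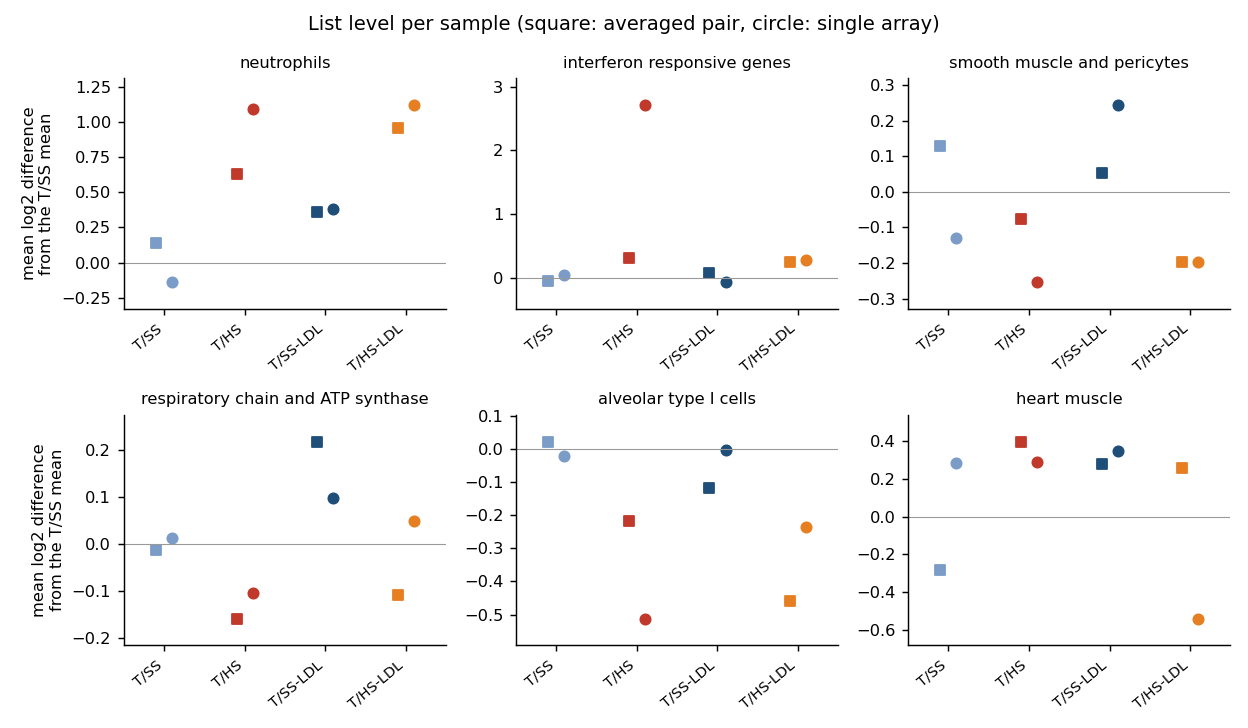
Mean log2 level of 6 lists in each sample, as the difference from the T/SS mean. Squares are averaged pairs and circles single arrays. Neutrophil markers are higher in shock than in sham in both duct states, interferon-responsive genes are high in T/HS replicate 2 (2.71, with Cxcl10 at the ceiling), and heart muscle markers spread within T/SS and T/HS-LDL as much as between groups.

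Several transcription factors were separated upwards. Myc, which drives growth and metabolism, read 8.26 and 8.57 in T/SS, 9.06 and 9.52 in T/HS, 8.77 and 8.53 in T/SS-LDL and 9.27 and 9.25 in T/HS-LDL (0.75 ± 0.13, adjusted p = 0.225). Junb, an AP-1 subunit, read 10.66 and 11.06 in T/SS, 11.66 and 12.52 in T/HS, 10.87 and 10.98 in T/SS-LDL and 11.40 and 12.25 in T/HS-LDL (1.06 ± 0.24, 2.09-fold, adjusted p = 0.255). Cebpd, a C/EBP factor of the acute phase response, read 12.04 and 12.31 in T/SS, 13.02 and 13.57 in T/HS, 12.59 and 12.31 in T/SS-LDL and 12.76 and 13.04 in T/HS-LDL (0.78 ± 0.19, adjusted p = 0.29). None of these 3 overlapped between the 4 shock and 4 sham samples. The other Cebpd probe sets differed by 0.10 and 0.68 and were not separated. Egr1, another immediate early factor, was separated in the dimmest of its 4 probe sets alone (0.30 ± 0.06). The other Egr1 probe sets had differences from 0.06 to 0.49. In contrast Klf4, a factor of quiescent endothelium and epithelium, was separated downwards: 11.39 and 11.58 in T/SS, 10.82 and 10.69 in T/HS, 11.64 and 11.69 in T/SS-LDL and 11.45 and 11.38 in T/HS-LDL (-0.49 ± 0.11, adjusted p = 0.252). Of 21 immediate early factors in all, 3 were separated upwards and 1 downwards, against 4.48% and 4.84% of all genes. The median of the list was 0.04.

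Other genes higher after shock served varied roles. Vcan, Btg1, Mrps6, Glul and Crispld2 were leading genes, higher in all 4 shock samples than in any sham sample. Vcan, the matrix proteoglycan versican, read 8.29 and 8.11 in T/SS, 8.93 and 10.004 in T/HS, 8.27 and 8.35 in T/SS-LDL and 9.45 and 9.22 in T/HS-LDL (1.15 ± 0.21, 2.22-fold). Btg1, which restrains proliferation, read 13.08 and 12.95 in T/SS, 13.68 and 13.81 in T/HS, 13.26 and 12.83 in T/SS-LDL and 13.46 and 13.61 in T/HS-LDL (0.61 ± 0.11). Mrps6, a mitochondrial ribosomal protein, differed by 0.75 ± 0.14, Glul, or glutamine synthetase, by 0.36 ± 0.07, and Crispld2 by 0.53 ± 0.10. All 5 had an adjusted p of 0.225 by limma. The brightest of the 4 Glul probe sets differed by 0.09 and the other Btg1 probe set by 0.37, both without separation. Hmox1, the heme-degrading oxygenase, read 7.50 and 8.14 in T/SS, 8.58 and 9.76 in T/HS, 8.07 and 8.04 in T/SS-LDL and 8.82 and 8.76 in T/HS-LDL (1.04 ± 0.27, adjusted p = 0.326), without overlap, and its other probe set differed by 1.17. Nfe2l2, which activates antioxidant genes, differed by 0.63 ± 0.18 in 1 probe set and by 0.43, without separation, in the other. Map3k8, a kinase upstream of ERK, differed by 0.63 ± 0.26, or 0.39 without T/HS replicate 2, and its averaged T/HS pair (6.30) lay barely above T/SS. Timp1, the tissue inhibitor of metalloproteinases, differed by 0.45 ± 0.17, or 0.28 without that array. Per2, a circadian repressor, read 7.03 and 6.73 in T/SS, 7.88 and 7.31 in T/HS, 7.49 and 7.04 in T/SS-LDL and 9.26 and 7.78 in T/HS-LDL (0.98 ± 0.32), highest in the averaged T/HS-LDL pair, without which Per2 differed by 0.63. Nfe2l2, Map3k8, Timp1 and Per2 were separated within each duct state, but their shock and sham samples overlapped across the states. Arnt, the partner of hypoxia-inducible factors, differed by 0.34 ± 0.09. By their brightest probe sets Arnt alone was separated among 26 hypoxia and glycolysis genes, against 4.48% upwards and 4.84% downwards of all genes. The median of the list was 0.03. Vegfa was separated downwards in a dimmer probe set, as given below. Among plasma proteins Lbp, which presents lipopolysaccharide to Cd14, differed by 0.32 ± 0.11, or 0.21 without T/SS replicate 1, and Fga, the fibrinogen alpha chain, by 0.29 ± 0.08 in 1 of 3 probe sets.

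Promoter windows of the leading genes were taken from RefSeq (GRCr8), where 23 of the 30 leading genes had an entry. Of these, 5 had a match, on either strand within 250 bases before the start, to a motif searched, and 18 had none. Motifs were those of NF-kB, the CArG box and the heat shock element, TGANTCA for AP-1, TTGCNNAA for C/EBP, the E-box CACGTG and the TATA box TATAAA. Shown are 3 leading genes higher after shock (Il1b, Pglyrp1, Ccr2) and 1 lower (Ctdsp1), each with its match in capitals. None of the 4 windows held another of the motifs. Il1b is at chr3:137036582-137036831 (minus strand), Pglyrp1 at chr1:87659613-87659862 (plus strand), Ccr2 at chr8:132611953-132612202 (plus strand) and Ctdsp1 at chr9:83422916-83423165 (plus strand).
Il1b: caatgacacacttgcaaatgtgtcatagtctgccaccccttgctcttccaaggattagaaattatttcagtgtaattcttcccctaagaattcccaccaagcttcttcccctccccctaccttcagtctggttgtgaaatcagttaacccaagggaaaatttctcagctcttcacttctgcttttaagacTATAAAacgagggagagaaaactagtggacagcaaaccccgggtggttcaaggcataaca
Pglyrp1: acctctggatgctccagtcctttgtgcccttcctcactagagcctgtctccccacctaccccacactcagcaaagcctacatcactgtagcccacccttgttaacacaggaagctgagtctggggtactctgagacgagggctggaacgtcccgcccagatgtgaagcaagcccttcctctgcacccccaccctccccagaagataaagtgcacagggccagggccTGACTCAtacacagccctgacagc
Ccr2: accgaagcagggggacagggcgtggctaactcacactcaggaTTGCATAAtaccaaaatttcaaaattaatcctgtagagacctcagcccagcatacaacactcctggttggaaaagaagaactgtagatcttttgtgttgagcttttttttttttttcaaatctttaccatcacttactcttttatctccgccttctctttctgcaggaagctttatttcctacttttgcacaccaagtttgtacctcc
Ctdsp1: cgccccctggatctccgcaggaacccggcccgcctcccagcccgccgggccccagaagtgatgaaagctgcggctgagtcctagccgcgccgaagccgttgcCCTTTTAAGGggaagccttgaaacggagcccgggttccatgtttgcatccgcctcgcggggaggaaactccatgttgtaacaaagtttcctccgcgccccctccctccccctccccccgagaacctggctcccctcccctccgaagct
The capitals mark a TATA box in Il1b, 60 to 55 bases before the start, an AP-1 motif in Pglyrp1, a C/EBP motif in Ccr2 and a CArG box in Ctdsp1.

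The C/EBP letters were in 26 of the 167 windows of genes separated upwards (15.6%), in 14 of the 192 of genes separated downwards (7.29%), in 8.65% of the 3871 windows of measured genes and in 9.2% of 27457 windows in all. In the same order the shares for AP-1 were 11.4%, 3.65%, 5.19% and 6.36%. NF-kB motifs were in 5.99%, 1.56%, 4.34% and 3.52%. The CArG box, bound by serum response factor in genes of contractile cells, was in 1.2%, 1.56%, 1.6% and 1.5%. E-boxes were in 4.19%, 6.25%, 7.78% and 5.79%, and TATA boxes in 8.38%, 4.69%, 10.9% and 13.1%. The heat shock element was in 0%, 0.521%, 0.388% and 0.597%. These shares describe letters in a short window, and their differences were not tested.

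The gene with the smallest p among those lower after shock was Cryab. Cryab, the chaperone alpha B-crystallin, read 12.15 and 12.09 in T/SS, 11.58 and 11.44 in T/HS, 12.49 and 12.29 in T/SS-LDL and 11.86 and 11.85 in T/HS-LDL. Its difference was -0.57 ± 0.07 (1.49-fold lower, adjusted p = 0.117), and every shock sample lay below every sham sample. Its other probe set differed by -0.03. Hspb1, another small heat shock protein, read 14.09 and 14.23 in T/SS, 13.59 and 13.65 in T/HS, 14.10 and 14.33 in T/SS-LDL and 13.94 and 13.83 in T/HS-LDL (-0.44 ± 0.09, adjusted p = 0.225), also without overlap. Its other 3 probe sets had differences from -0.32 to -0.10 and were not separated. Hspb6, a small heat shock protein of smooth muscle, differed by -0.28 ± 0.06 without overlap, and the mitochondrial chaperone Hspa9 by -0.40 ± 0.14. The other Hspa9 probe sets differed by -0.22 and 0.12 and were not separated. Of 26 heat shock proteins and chaperones 4 were separated downwards and 0 upwards, against 4.84% and 4.48% of all genes. But 5 were higher in both duct states, and the median was -0.12, or -0.06 without the averaged T/HS pair. The list as a whole had a median of -0.18 with the duct open and 0.02 with it ligated.

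Of 14 smooth muscle and pericyte markers, 10 were lower in both duct states, against 28.9% of all genes, and 0 were higher in both. Separated downwards were 4, against 4.84% of all genes. The median was -0.32, or -0.19 without T/SS-LDL replicate 2. Tpm1, the actin-binding tropomyosin, read from 12.86 to 13.13 in the 4 sham samples and from 12.31 to 12.58 in the 4 shock samples in its leading probe set (-0.53 ± 0.09, adjusted p = 0.225), so the shock samples were the 4 lowest. All 5 Tpm1 probe sets had negative differences, 3 of them separated. Myh11, the smooth muscle myosin heavy chain, read 12.17 and 11.85 in T/SS, 11.75 and 11.56 in T/HS, 12.27 and 12.12 in T/SS-LDL and 11.85 and 11.77 in T/HS-LDL (-0.37 ± 0.09, adjusted p = 0.298), and its lowest sham and highest shock sample were both near 11.85. Acta2, smooth muscle actin, read 14.28 and 13.87 in T/SS, 13.70 and 13.54 in T/HS, 14.10 and 13.96 in T/SS-LDL and 13.40 and 13.92 in T/HS-LDL (-0.41 ± 0.14), separated within each state but overlapping across them. Cald1, the actin regulator caldesmon, differed by -0.48 ± 0.11. Myl9 (-0.51 ± 0.16) and Tagln (-0.28 ± 0.10) had negative differences and were not separated. Summed signals of the list were 61900 to 75599 in T/SS, 54153 to 62285 in T/HS, 72484 to 80319 in T/SS-LDL and 54942 to 60170 in T/HS-LDL.

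Kank2, an adaptor between actin and adhesion sites, read 12.60 and 12.67 in T/SS, 12.02 and 11.56 in T/HS, 12.77 and 12.78 in T/SS-LDL and 12.24 and 12.14 in T/HS-LDL (-0.71 ± 0.11, 1.64-fold lower, adjusted p = 0.225), with every shock sample under every sham. Gucy1a1 and Gucy1b1 encode both chains of the soluble guanylate cyclase, the nitric oxide receptor of smooth muscle. Gucy1a1 read 12.21 and 12.19 in T/SS, 11.90 and 11.90 in T/HS, 12.50 and 12.37 in T/SS-LDL and 11.997 and 12.06 in T/HS-LDL (-0.35 ± 0.06, adjusted p = 0.225), without overlap. Gucy1b1 read 11.05 and 11.17 in T/SS, 10.88 and 10.82 in T/HS, 11.70 and 11.38 in T/SS-LDL and 11.13 and 10.76 in T/HS-LDL (-0.43 ± 0.12, adjusted p = 0.36), separated in each state. Npr1, the membrane guanylate cyclase that binds natriuretic peptides, differed by -0.42 ± 0.13 in 1 of 3 probe sets, and the other probe sets had differences of the same sign. These were the 3 of 29 vascular tone genes separated downwards, and 1 was separated upwards, against 4.84% and 4.48% of all genes. In both duct states 12 of the list were lower and 7 higher, and its median was 0.01. Maob, which degrades amines, read 11.42 and 11.37 in T/SS, 10.18 and 10.41 in T/HS, 11.84 and 11.41 in T/SS-LDL and 10.97 and 11.40 in T/HS-LDL (-0.77 ± 0.17, adjusted p = 0.252), lower mainly with the duct open. The sums of smooth muscle markers given above were apart between shock and sham with the duct ligated and overlapped with it open, and their part in these genes was not tested.

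**Figure D4:**
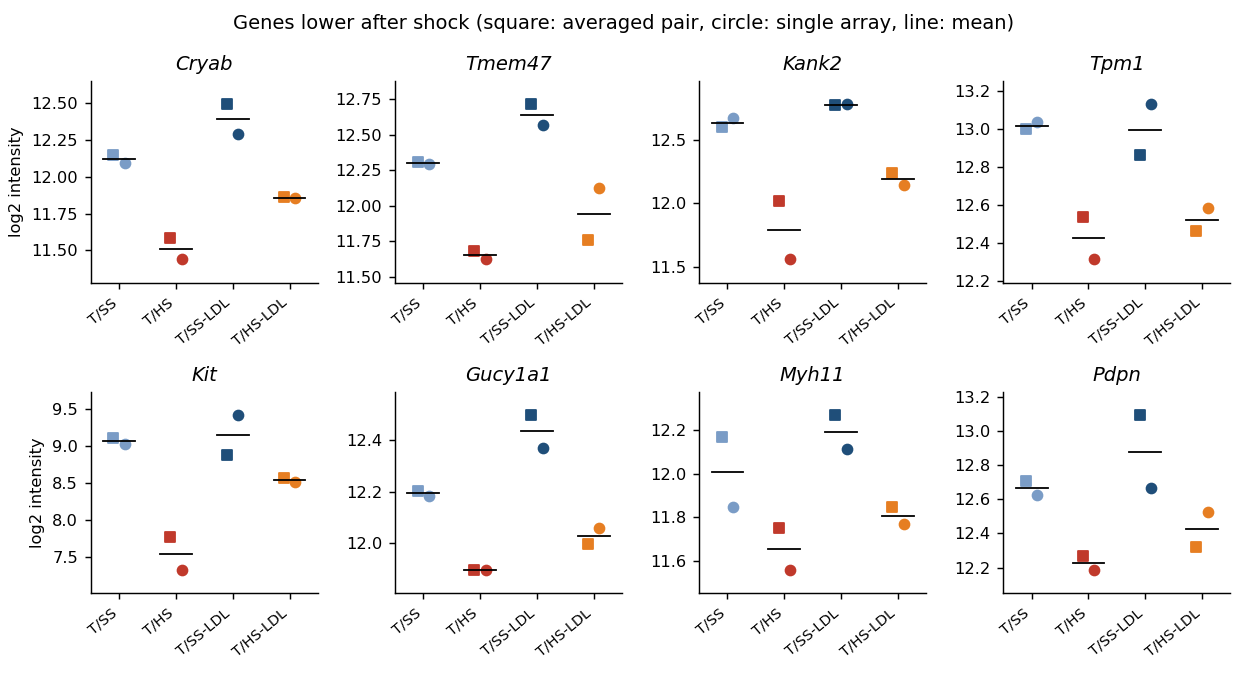
Log2 intensity of 8 genes lower after shock, by group. Squares are averaged pairs, circles single arrays and lines group means. In each panel all 4 shock samples lie below all 4 sham samples. The step is largest for Kit with the duct open.

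Kit, the receptor for stem cell factor, had the largest difference among the leading lower genes: 9.11 and 9.03 in T/SS, 7.77 and 7.32 in T/HS, 8.88 and 9.42 in T/SS-LDL and 8.57 and 8.51 in T/HS-LDL (-1.07 ± 0.21, 2.09-fold lower, adjusted p = 0.225). It was lower by 1.52 with the duct open and by 0.61 with it ligated, and its other probe set gave -0.37, also separated. Mast cells carry Kit. Of 11 mast cell markers, Kit among them, 1 was separated downwards, Kit itself, and 1 upwards, Mcpt9 (0.22 ± 0.09, or 0.14 without T/HS replicate 2). Over all genes the shares were 4.84% downwards and 4.48% upwards. The list's median was -0.27 with the duct open and 0.11 with it ligated. Its summed signal was 5301 to 5941 in T/SS, 4422 to 4486 in T/HS, 4535 to 5050 in T/SS-LDL and 4883 to 5255 in T/HS-LDL, and its part in the Kit difference was not tested. Tmem47 read 12.30 and 12.29 in T/SS, 11.68 and 11.62 in T/HS, 12.71 and 12.57 in T/SS-LDL and 11.76 and 12.13 in T/HS-LDL (-0.67 ± 0.09, adjusted p = 0.124). Schip1 read 11.39 and 11.56 in T/SS, 11.17 and 10.67 in T/HS, 11.66 and 11.78 in T/SS-LDL and 11.02 and 11.02 in T/HS-LDL (-0.63 ± 0.11, adjusted p = 0.225). Both were lower in every shock sample.

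Car2, a carbonic anhydrase, read 8.64 and 8.47 in T/SS, 8.01 and 7.62 in T/HS, 8.93 and 8.56 in T/SS-LDL and 8.12 and 8.27 in T/HS-LDL (-0.64 ± 0.12, adjusted p = 0.225). Ctdsp1, a small phosphatase of the RNA polymerase tail, read 12.68 and 12.64 in T/SS, 12.04 and 12.21 in T/HS, 12.73 and 12.81 in T/SS-LDL and 12.48 and 12.47 in T/HS-LDL (-0.42 ± 0.08, adjusted p = 0.225). Car4, the carbonic anhydrase on lung capillary endothelium, read 11.58 and 11.91 in T/SS, 11.41 and 10.55 in T/HS, 11.71 and 12.13 in T/SS-LDL and 11.25 and 11.36 in T/HS-LDL (-0.69 ± 0.19, adjusted p = 0.355), and both of its probe sets were separated. For Car2, Ctdsp1 and Car4 the shock samples were the 4 lowest. Among 9 endothelial markers Car4 was the only one separated and 6 were lower in both states, against 28.9% of all genes. Pecam1 differed by -0.32 ± 0.17 with overlap. Of 5 alveolar type I cell markers 2 were separated downwards, against 4.84% of all genes, with a median of -0.39. Pdpn, or podoplanin, read 12.71 and 12.62 in T/SS, 12.27 and 12.19 in T/HS, 13.09 and 12.66 in T/SS-LDL and 12.32 and 12.52 in T/HS-LDL (-0.45 ± 0.10, adjusted p = 0.265), and Akap5, an anchor for protein kinase A, differed by -0.39 ± 0.08, both without overlap. Cav1, of caveolae, differed by -0.28 ± 0.17 and overlapped. Summed signals of this list were 59994 to 60203 in T/SS, 48358 to 56685 in T/HS, 55571 to 58116 in T/SS-LDL and 51278 to 54388 in T/HS-LDL.

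Of 25 genes of the respiratory chain and ATP synthase, 19 were lower in both duct states and 2 higher, against 28.9% and 29.5% of all genes. Separated downwards were 6, against 4.84% of all genes, and the list's median was -0.13. Under quantile normalization the median was -0.08. Ndufc1, a subunit of complex I, read 11.71 and 11.91 in T/SS, 10.72 and 11.06 in T/HS, 12.12 and 11.93 in T/SS-LDL and 11.68 and 11.67 in T/HS-LDL (-0.64 ± 0.14, adjusted p = 0.238), without overlap. The other Ndufc1 probe set differed by -0.44 and was not separated. Slc25a4, the adenine nucleotide carrier, differed by -0.27 ± 0.07 and was separated. Decr1, a mitochondrial enzyme of unsaturated fatty acid oxidation, read 9.49 and 9.89 in T/SS, 9.03 and 8.87 in T/HS, 9.89 and 9.88 in T/SS-LDL and 9.25 and 9.54 in T/HS-LDL (-0.61 ± 0.12, adjusted p = 0.225), separated in each state but with T/HS-LDL replicate 2 above the lowest sham. Uqcrfs1, the iron-sulfur protein of complex III, differed by -0.29 ± 0.07 in 1 of 3 probe sets.

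Enzymes of detoxification were lower in part. Cbr1, a carbonyl reductase, read 10.21 and 10.24 in T/SS, 9.84 and 9.86 in T/HS, 10.51 and 10.60 in T/SS-LDL and 9.97 and 10.20 in T/HS-LDL (-0.42 ± 0.07, adjusted p = 0.225). Gpx2, a glutathione peroxidase of epithelium, read 13.03 and 13.01 in T/SS, 12.56 and 12.11 in T/HS, 13.17 and 13.09 in T/SS-LDL and 12.63 and 12.90 in T/HS-LDL (-0.52 ± 0.12, adjusted p = 0.283). Aldh1a1, a retinal-oxidizing dehydrogenase, read 14.12 and 14.10 in T/SS, 14.05 and 13.56 in T/HS, 14.47 and 14.30 in T/SS-LDL and 13.71 and 14.01 in T/HS-LDL (-0.42 ± 0.13). In each of these 3 the shock samples were the 4 lowest. The glutathione transferases Gstm1 (-0.39 ± 0.10, 1 of 3 probe sets), Gsta4 (-0.31 ± 0.12, 1 of 2) and Gstp1 (-0.28 ± 0.12) and the peroxiredoxin Prdx2 (-0.28 ± 0.07) were separated downwards as well. Of 27 xenobiotic metabolism genes 13 were lower and 4 higher in both states, 2 separated downwards, with a median of -0.14. Shares over all genes were 28.9% lower and 29.5% higher in both states, and 4.84% separated downwards. Of 24 antioxidant genes 3 were separated downwards and 2 upwards, against 4.84% and 4.48% of all genes. Such small counts of separated genes do not set either list apart. The brightest catalase probe set, chosen after its values were seen, had the lowest difference of any gene (-1.38 ± 0.48) but was not separated. Cat read 11.08 and 11.09 in T/SS, 8.31 and 9.02 in T/HS, 11.58 and 10.49 in T/SS-LDL and 10.21 and 11.19 in T/HS-LDL, so it was low in T/HS and overlapped between the groups with a ligated duct.

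Of 17 cell cycle genes 3 were separated downwards and 0 upwards, against 4.84% and 4.48% of all genes, with a median of -0.01. Ccnd1, the cyclin that starts the cell cycle, read 11.75 and 11.85 in T/SS, 11.07 and 11.40 in T/HS, 11.50 and 11.75 in T/SS-LDL and 11.29 and 11.21 in T/HS-LDL (-0.47 ± 0.10, adjusted p = 0.238), and its 5 probe sets disagreed, from -0.47 to 0.22. Cdk4, its kinase partner, differed by -0.27 ± 0.08 and Stmn1, a microtubule regulator of dividing cells, by -0.53 ± 0.18, mostly with the duct open (-0.94). Without T/HS replicate 2 the Stmn1 difference was -0.35. Vegfa, the endothelial growth factor, read 12.52 and 12.96 in T/SS, 11.32 and 11.68 in T/HS, 12.21 and 12.64 in T/SS-LDL and 12.001 and 12.21 in T/HS-LDL (-0.78 ± 0.22, adjusted p = 0.355) in 1 of 4 probe sets. The Vegfa difference was -1.24 with the duct open and -0.32 with it ligated, where T/SS-LDL and T/HS-LDL each had a sample near 12.21. The other Vegfa probe sets had differences from -0.70 to -0.10 and were not separated. Pla2g2a, a secreted phospholipase that releases arachidonic acid, differed by -0.38 ± 0.11, without overlap. Paip1, of translation initiation, differed by -0.40 ± 0.08 and Rnf130, a ubiquitin ligase, by -0.39 ± 0.08. Ift25, of cilia, differed by -0.45 ± 0.11. The other probe sets of Rnf130 (-0.36) and Ift25 (-0.21) were not separated.

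**Figure D5:**
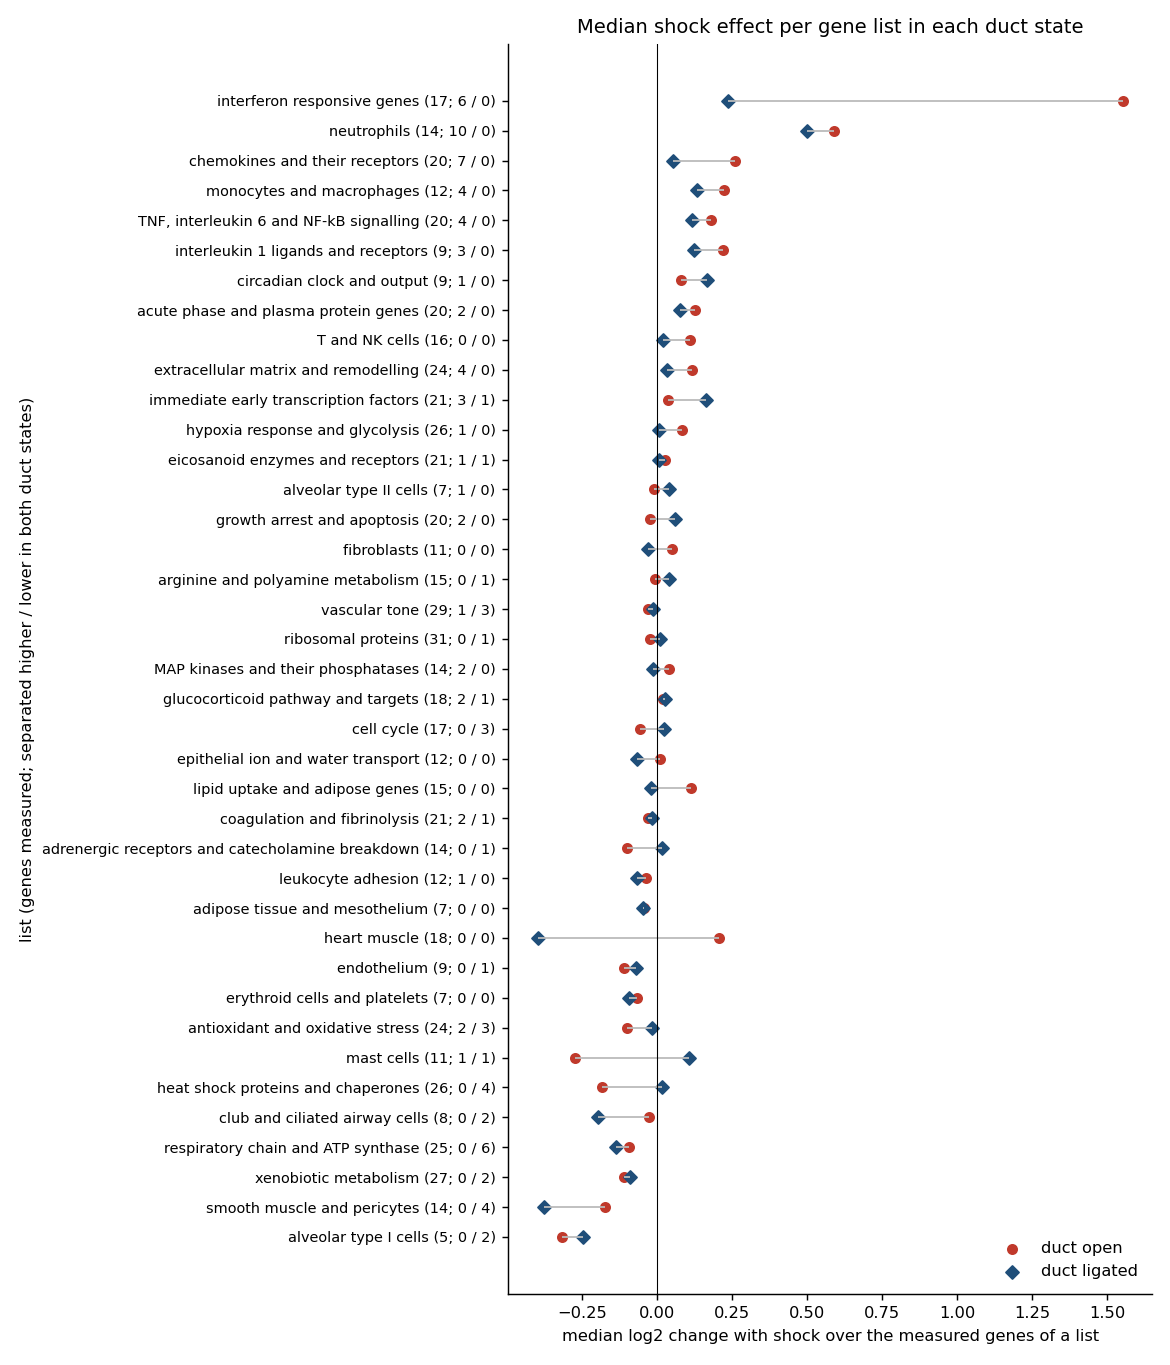
Median log2 difference between shock and sham over the measured genes of each list with at least 5 genes, with the duct open (red circles) and ligated (blue diamonds). Brackets give genes measured and genes separated upwards and downwards. Interferon-responsive genes and neutrophil markers are at the top, alveolar type I and smooth muscle markers at the bottom, and heart muscle markers lie on opposite sides of 0.

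The difference between the shock effects of both duct states was tested for each probe set, and limma called 0 of 8740 (0%; 261 at an unadjusted p of 0.05, 104 with the larger value with the duct open). The 261 were fewer than a share of 0.05 of those tested. The 6 named genes with the smallest p had effects of opposite sign in the 2 duct states, several of them small with the duct ligated. Gda, guanine deaminase, read 11.49 and 11.41 in T/SS, 12.85 and 13.89 in T/HS, 12.84 and 12.54 in T/SS-LDL and 11.99 and 12.66 in T/HS-LDL, a difference of 1.92 with the duct open and -0.36 with it ligated. Canx, the endoplasmic reticulum chaperone calnexin, read 13.28 and 13.27 in T/SS, 12.05 and 12.38 in T/HS, 13.48 and 13.01 in T/SS-LDL and 13.28 and 13.35 in T/HS-LDL, -1.06 against 0.07. Mapk12, a p38 kinase, read 10.35 and 10.54 in T/SS, 9.46 and 9.65 in T/HS, 10.31 and 10.28 in T/SS-LDL and 10.38 and 10.31 in T/HS-LDL, -0.89 against 0.05. A Tpm1 probe set other than the leading one, X02412_at, read 10.44 and 10.77 in T/SS, 11.18 and 11.13 in T/HS, 11.40 and 11.51 in T/SS-LDL and 10.92 and 10.55 in T/HS-LDL, higher in shock with the duct open and lower with it ligated. Sult2a6 (-0.58 against 0.20) and Zfp706 (-0.74 against 0.13) were lowest in T/HS. With the duct ligated, shock and sham samples of Gda, Canx, Mapk12 and Zfp706 overlapped, so no opposite change can be read for them. Other probe sets of these genes did not all show such a difference (duct open first, ligated second). Those of Gda gave 1.39 and -0.04, but also 0.08 and 0.12. Those of Canx gave -1.33 and 0.23, and -1.08 and 0.11, but also 0.01 and -0.26, and -0.55 and -0.31. Steps were small for Zfp706 (0.06 and 0.03), Sult2a6 (0.02 and 0.12, -0.13 and 0.14) and Mapk12 (-0.23 and 0.18). Of 18 heart muscle markers 15 differed in opposite directions, with a median of 0.21 with the duct open and -0.40 with it ligated, and 0 were separated in 1 direction in both states. Their mean level spread within T/SS, from -0.29 to 0.29, and within T/HS-LDL, from -0.54 to 0.26, as far as between groups.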

How the data were processed

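The 12 arrays, 3 in each of 4 groups, were of a one-colour Affymetrix type and measured rat lung RNA. Per the submitters' processing notes, the authors made the deposited intensity values with RMA, whose version is not given in the sources used here. The values are linear, and log2 of the deposited intensity was computed here with no further scaling. Of 8799 probe sets 59 controls were left out. Of the 8740 tested, 7006 had 1 gene symbol in the platform annotation, 308 had several and 1426 had none, which gave 4736 genes.

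Array pairs with a robust SD of log2 differences under 0.1 were averaged. A limma model with terms for shock and duct state was fitted to the 8 samples (version 3.58.1 in R 4.3.3, 5 residual and 2.84 prior degrees of freedom, prior SD 0.129). Effects in each duct state and their difference came from a fit with 4 groups. Two-sided p-values received a Benjamini-Hochberg adjustment over all 8740 probe sets tested. The number of arrays limits the precision. The scripts were tested on simulated data.

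A gene in a list stands for its probe set with the highest mean signal. A gene named as separated is its separated probe set with the smallest p, and a high-signal gene its probe set with the highest mean signal. For the difference between duct states it is the probe set with the smallest p for that difference. Named were the 15 separated genes with the smallest p in each direction, up to 4 separated and 2 high-signal genes of each list, and 6 genes for the difference between duct states. The members and the lists were chosen with earlier results of these data known. Of 18 same-numbered pairs of arrays between groups, 3 had deviations that correlated above 0.1 (r from -0.166 to 0.189). For T/HS with T/HS-LDL r was 0.0876, 0.124 and 0.114. Near-identical arrays make these values depend on each other, so they cannot decide whether replicate numbers pair the samples. Alternatives were the treatment of near-identical arrays, a block, scaling, a pseudocount of 50, a signal filter and each sample left out.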

Additional observations from a re-analysis of the deposited data

How the results depend on the processing

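At an adjusted p of 0.05, limma called 0 probe sets for shock over both duct states, and 2 at 0.10. With 12 arrays as separate samples it called 530 for shock over both states, 629 with the duct open, 127 with the duct ligated and 1 for the difference. With the replicate number as a block it called 358, 456, 47 and 1. Whether these numbers pair the samples could not be decided. With near-identical arrays in a random block it called 69 over both states and 25 with the duct open. Leaving out 1 sample gave 0 to 5 calls over both states, 0 to 139 with the duct open (139 without the averaged T/HS pair), 0 to 2 with it ligated and 0 to 27 for the difference (27 without that pair). Leaving out 1 sample gave 566 to 844 probe sets separated upwards and 482 to 779 downwards, where fewer samples have to be separated. With probe sets above the median signal alone, 182 were separated upwards. With 1 sample left out, counts over 2-fold in both states ranged from 8 to 25 higher and 0 to 5 lower. With 1 sample left out the correlation of both shock effects was 0.210 to 0.364 (0.239 without the averaged T/HS-LDL pair), and it was 0.408 with probe sets above the median signal alone. Of 102 probe sets of named genes, 0 changed direction in any setting, and 27 moved over 1.5 times when 1 sample was left out. Many were named because they were separated, and a separated probe set keeps its direction when 1 sample is left out. The count of 0 is therefore no test of their direction. The causes were not tested. Signals at the ceiling of an array limit what can be read for the brightest genes.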
